A study of Homo sapiens with 6 samples.

Results

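The genes described here are 10 genes of the Fanconi anaemia pathway: FANCM, FANCA, FANCG, FANCC, FANCE, FANCF and FANCL of the core complex, its partner enzyme UBE2T, and FANCI and FANCD2, the pair that the complex modifies. They were taken by symbol from deposited tables of 24305 genes, and all 10 passed the filter on low counts that left 14452 genes for testing. RNA sequencing compared DU 145 cells treated with talazoparib, an inhibitor of the DNA repair enzymes PARP1 and PARP2, for 48 h with a control labelled "DMOS", read here as the solvent DMSO, with 3 libraries in each group. DU 145 is an established line of castration-resistant prostate cancer that the study design calls deficient in homologous recombination repair, a property that both groups share. The design names 5, 10 and 20 µM talazoparib, and the labels do not say which dose was sequenced. Nothing in the labels says that the 3 libraries of a group came from separate cultures. Each edgeR p-value sets the difference between the groups against the spread among these libraries, and that spread may be technical.

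The Fanconi anaemia pathway repairs crosslinks that join the strands of DNA and protects stalled replication forks. FANCM anchors the core complex on chromatin, the ring-finger protein FANCL within it acts with the ubiquitin-conjugating enzyme UBE2T, and a ubiquitin is attached to FANCD2 and FANCI. The modified pair clamps around DNA and brings in nucleases, translesion polymerases and recombination proteins, and the USP1-WDR48 enzyme takes the ubiquitin off again. Inherited loss of most of these genes causes Fanconi anaemia, a disease of bone marrow failure and cancer risk.

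The promoters of 4 genes are printed to set the upstream letters of genes that fell, rose or did not pass the test next to each other. FANCD2 (chr3:10026187-10026442, plus strand) and FANCM (chr14:45135680-45135935, plus strand) fell in both fits described below, FANCG (chr9:35079937-35080192, minus strand) rose in the first of them, and UBE2T (chr1:202341931-202342186, minus strand) passed in neither. The sequences are RefSeq's on build GRCh38.p14 and hold 250 bases before the gene's start and its first 6 bases, written 5′ to 3′ on the gene's strand. Capitals mark matches, on either strand, to the E2F letters TTTCCCGC, TTTGGCGC, TTTCGCGC or TTTGCCGC, to the cell cycle homology element TTTGAA, to CCAAT and to the GC box GGGCGG.
FANCD2: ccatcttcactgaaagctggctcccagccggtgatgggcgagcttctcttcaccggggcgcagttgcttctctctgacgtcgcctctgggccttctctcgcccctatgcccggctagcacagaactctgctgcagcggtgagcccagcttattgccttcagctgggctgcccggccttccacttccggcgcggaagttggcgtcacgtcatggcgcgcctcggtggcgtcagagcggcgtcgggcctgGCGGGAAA
FANCM: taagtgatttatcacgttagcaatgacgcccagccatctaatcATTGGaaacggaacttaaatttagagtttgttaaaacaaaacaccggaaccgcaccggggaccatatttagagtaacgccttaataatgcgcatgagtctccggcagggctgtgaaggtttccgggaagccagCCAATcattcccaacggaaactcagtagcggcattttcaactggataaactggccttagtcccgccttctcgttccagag
FANCG: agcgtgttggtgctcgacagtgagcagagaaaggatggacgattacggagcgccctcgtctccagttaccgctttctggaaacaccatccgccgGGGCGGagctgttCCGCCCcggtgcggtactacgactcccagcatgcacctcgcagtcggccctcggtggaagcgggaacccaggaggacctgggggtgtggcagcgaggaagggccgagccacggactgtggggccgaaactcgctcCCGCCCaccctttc
UBE2T: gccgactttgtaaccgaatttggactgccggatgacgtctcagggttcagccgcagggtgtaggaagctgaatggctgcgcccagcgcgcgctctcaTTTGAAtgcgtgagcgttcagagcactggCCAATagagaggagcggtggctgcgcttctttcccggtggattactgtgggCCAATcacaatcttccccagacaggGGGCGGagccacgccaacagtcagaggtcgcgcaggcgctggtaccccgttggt

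Of the 10 genes, 9 had such an entry (FANCC had 2), and FANCI is named only. In the whole window of 300 bases, E2F letters were found for FANCA, for FANCD2 and in 1 of the 2 windows of FANCC. Of the 35116 human promoter windows of that length, 3.31% hold them. The E2F match of FANCD2, GCGGGAAA, runs from base -2 to base 6 around the start, and FANCD2 also had 1 GC box, at bases 19 to 24, past the printed bases. FANCM had 2 CCAAT matches (34.6% of windows hold at least 1), FANCG had 3 GC boxes (45.0% of windows), and UBE2T had 1 TTTGAA match (15.2% of windows), 2 CCAAT matches and 1 GC box. Matches of different motifs could overlap, and none did in the printed bases. A match describes the letters and does not show that a factor binds there.

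The 6 libraries held between 39123997 and 39585727 counts each. Summed CPM (read counts scaled to a common library size, here by library total) of 5 epithelial markers were 1161 to 1265 in talazoparib libraries and 1098 to 1303 in control libraries. The labelled epithelial type thus showed its markers. The 4 leukocyte markers measured (of 5) summed to 61.7 to 67.5 CPM in talazoparib libraries and 25.1 to 27.7 CPM in control libraries, nearly all of it CD68, with PTPRC and CD3E at 0. The part of this difference in the results below was not tested. The 4 endothelial markers summed to at most 0.61 CPM, and the 5 fibroblast markers to at most 2.98 CPM, in any library.

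Across all genes the difference between the groups followed the composition of the transcript. Among the genes in the lowest of 10 equal bins of GC content (deciles) the median log2 fold change, talazoparib over control, was -0.73, and in the highest decile it was 0.43. By length it was 0.35 in the shortest decile and -0.65 in the longest. Of the talazoparib libraries, library 2 deviated most along this trend and library 3 least by GC content, and of the control libraries library 1 deviated least. The fold changes of the 10 genes are therefore given from 2 fits: one on the counts as they are, scaled by TMM (the trimmed mean of M-values), and one in which each library's trend over GC content and length was taken out first, called trend-removed. Whether the trend came from the treatment or from the libraries cannot be told apart with these samples. In this bulk RNA, fewer cells in a cycle phase and less RNA of a gene per cell cannot be told apart either.

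Among the 10 genes, FANCM, FANCI, FANCD2 and FANCF fell with talazoparib and FANCG rose, while FANCA, FANCC, FANCE, FANCL and UBE2T did not pass the test (edgeR quasi-likelihood test, adjusted p under 0.05 over all genes). That is 5 of 10 genes called, against 56.7% of all genes tested, with 1 higher against 26.8% of all genes and 4 lower against 29.9%. The share called was near the background. The median log2 fold change of the 10 genes was -0.03, against 0.00 for all genes. In the trend-removed fit FANCM, FANCI, FANCD2 and FANCE were lower and FANCL and FANCC higher, which is 6 of 10 genes against 44.2% of genes (2 higher against 22.0%, 4 lower against 22.2%), and the median was -0.11. FANCM, FANCI and FANCD2 were the 3 genes that passed with the same sign in both. For 7 of the 10 genes the CPM ranges of the groups lay apart, against 64.4% of all genes, and by trend-removed CPM they lay apart for 7, against 54.2%.

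**Figure D1:**
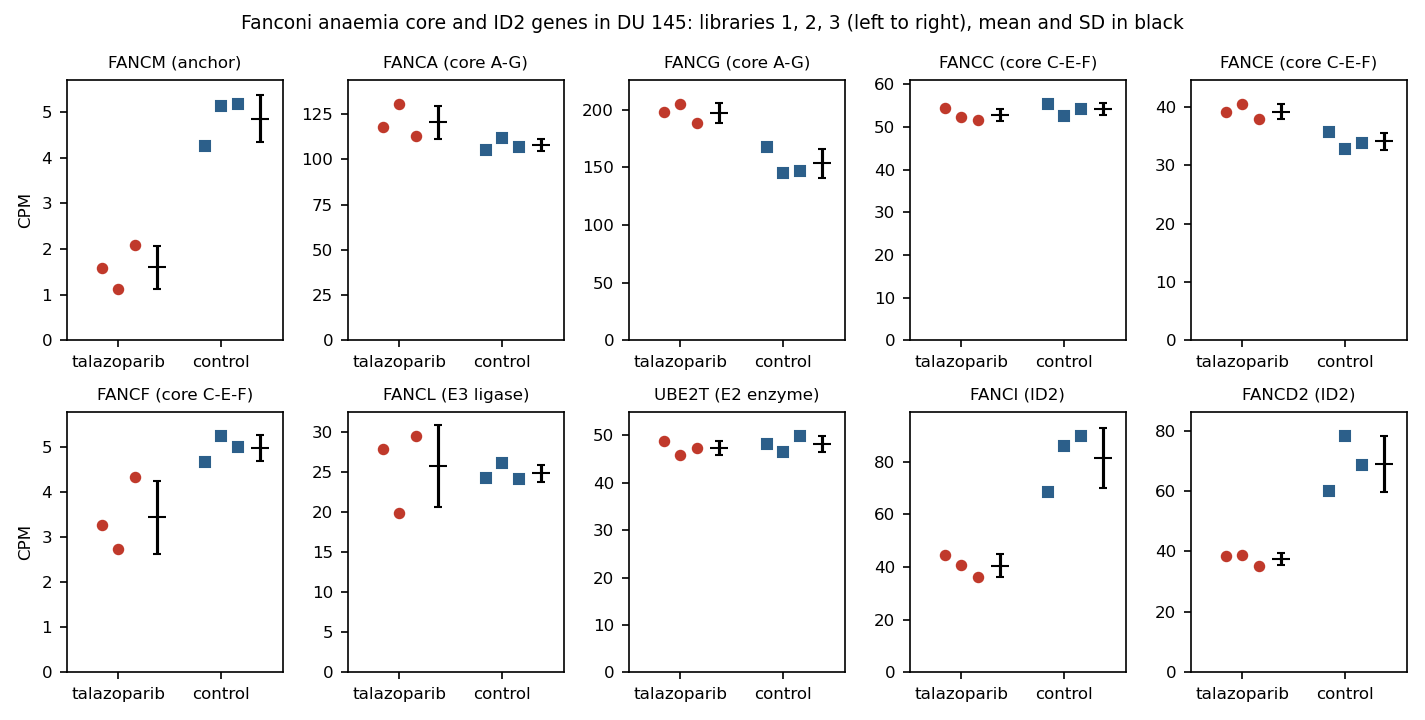
TMM-scaled CPM of each of the 10 genes in the 3 talazoparib libraries (red circles) and the 3 control libraries (blue squares), with the mean and SD in black; each panel has its own axis from 0. The groups lie apart for 7 genes, by the widest ratio for FANCM, FANCI and FANCD2, and overlap for FANCC, FANCL and UBE2T.

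**Figure D2:**
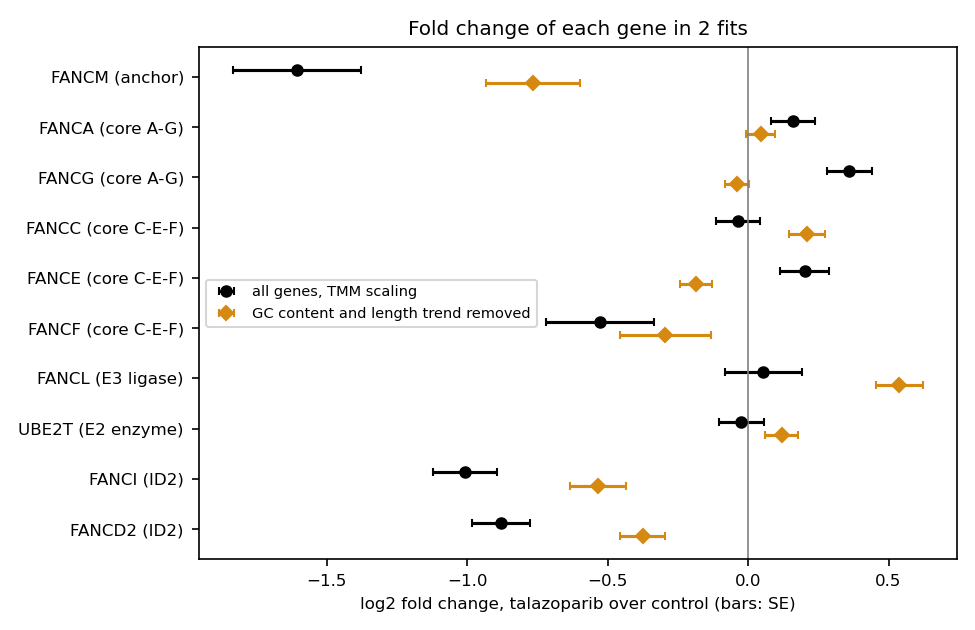
Log2 fold change, talazoparib over control, with its SE for each gene in the TMM-scaled fit (black circles) and the trend-removed fit (orange diamonds). FANCM, FANCI and FANCD2 lie below 0 in both, FANCG lies at 0.36 in the TMM-scaled fit and -0.04 trend-removed, and FANCL at 0.05 in the TMM-scaled fit and 0.54 trend-removed.

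FANCM is the DNA translocase that holds the core complex on chromatin. Its gene lies on GRCh38 chromosome 14 (45135940 to 45200890, plus strand). All gene positions are from GENCODE release 29. FANCM had the lowest mean CPM of the 10 genes in both groups, but in control libraries its range overlapped that of FANCF (4.67 to 5.26 CPM). Talazoparib libraries 1, 2 and 3 had 1.59, 1.12 and 2.08 CPM, from 61, 42 and 82 reads. Control libraries had 4.27, 5.13 and 5.19 CPM, from 168, 211 and 211 reads. Every talazoparib library was below every control library. The talazoparib mean was 0.328 of the control mean, and the log2 fold change was -1.60 ± 0.23 (SE, n = 3 each; edgeR adjusted p = 0.000112). It was also the gene with the widest relative difference of the 10. FANCM has the lowest GC content of the 10 genes, 37.7%, in a GC decile of which 66.0% fell and 1.17% rose. Trend-removed it had 2.13, 1.91 and 2.45 CPM in talazoparib libraries and 3.65, 3.46 and 3.78 CPM in control libraries. The groups still lay apart, and the log2 fold change was -0.77 ± 0.17 (edgeR adjusted p = 0.00327).

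FANCA (chr16:89737549-89816657, minus strand) and FANCG (chr9:35073835-35080016, minus strand) bind each other within the core complex, FANCG being a scaffold of tetratricopeptide repeats. FANCG was the only gene of the 10 that rose in the TMM-scaled fit. Its levels were 198, 205 and 188 CPM in talazoparib libraries and 168, 145 and 147 CPM in control libraries. All 3 talazoparib libraries were higher, and control library 1 was the nearest to them. The log2 fold change was 0.36 ± 0.08 (edgeR adjusted p = 0.00211). FANCG has a GC content of 58.1%, and 54.4% of the genes in that decile rose. The trend-removed value was -0.04 ± 0.04 (edgeR adjusted p = 0.495), and the groups then overlapped.

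FANCA had 118, 131 and 113 CPM in talazoparib libraries and 105, 112 and 107 CPM in control libraries. The groups did not overlap, but the lowest talazoparib library was only 1.44 CPM above the highest control library. The log2 fold change of 0.16 ± 0.08 did not pass (edgeR adjusted p = 0.101), and neither did the trend-removed 0.05 ± 0.05 (edgeR adjusted p = 0.503). Without talazoparib library 3 the difference did pass (log2 fold change 0.21, edgeR adjusted p = 0.0451), and so it did with the length trend alone removed (0.46, edgeR adjusted p = 0.000716). FANCA shares 2302 of its 9736 exon bases with ZNF276 on the other strand, and ZNF276 did not pass (log2 fold change -0.16, edgeR adjusted p = 0.116). Whether the reads were counted by strand is not given in the sources used here.

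FANCC, FANCE and FANCF form the part of the core complex that links it to FANCD2, with FANCF as the adaptor. FANCC (chr9:95099054-95426796) and FANCF (chr11:22622890-22625841) lie on the minus strand and FANCE (chr6:35452356-35467103) on the plus strand. Only FANCF passed the test in the TMM-scaled fit. FANCF had 3.28, 2.74 and 4.34 CPM in talazoparib libraries and 4.67, 5.26 and 5.02 CPM in control libraries. Talazoparib library 3 was 0.336 CPM below control library 1, so the groups lay apart by little. Its log2 fold change was -0.53 ± 0.19 (edgeR adjusted p = 0.0319). That call was lost without talazoparib library 1 (-0.49), talazoparib library 2 (-0.39), control library 2 (-0.52) or control library 3 (-0.56), and in the trend-removed fit (-0.29 ± 0.16, edgeR adjusted p = 0.165), where it passed without talazoparib library 3 (-0.46, edgeR adjusted p = 0.0421).

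FANCE had 39.1, 40.6 and 38.0 CPM in talazoparib libraries and 35.7, 32.8 and 33.9 CPM in control libraries. The 3 talazoparib libraries were the higher ones, by a log2 fold change of 0.20 ± 0.09 (edgeR adjusted p = 0.0639). FANCE has a GC content of 57.9%, and trend-removed its difference had the other sign, -0.19 ± 0.06 (edgeR adjusted p = 0.0217). That call was lost without talazoparib library 1 or 2 or control library 2 or 3 (edgeR adjusted p = 0.0524 to 0.0769), and with either trend alone removed (GC -0.13, edgeR adjusted p = 0.109; length 0.12, edgeR adjusted p = 0.297).

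FANCC had 54.4, 52.4 and 51.6 CPM in talazoparib libraries and 55.5, 52.7 and 54.3 CPM in control libraries. The groups overlapped, with a log2 fold change of -0.04 ± 0.08 (edgeR adjusted p = 0.716). FANCC has the longest deposited length of the 10 genes, 9400 nt, in a length decile of which 55.4% fell. Its trend-removed log2 fold change was 0.21 ± 0.06 (edgeR adjusted p = 0.0187), a call lost without control library 2 (0.17) or control library 3 (0.19). It rests on the length term: FANCC was at -0.07 with the GC trend alone removed (edgeR adjusted p = 0.36) and at 0.49 with the length trend alone removed (edgeR adjusted p = 0.000615).

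FANCL is the ubiquitin ligase subunit, the catalytic member of the core complex (chr2:58159243-58241372, minus strand). In talazoparib libraries it had 27.9, 19.9 and 29.5 CPM, and in control libraries 24.2, 26.1 and 24.1 CPM. Talazoparib library 2 was the lowest of the 6 and the other two talazoparib libraries the highest, so the groups overlapped. The log2 fold change was 0.05 ± 0.14 (edgeR adjusted p = 0.75). FANCL has a GC content of 39.3%, in a GC decile of which 66.9% fell and 2.11% rose, and it did not fall with them. Trend-removed it had 33.0, 27.6 and 30.3 CPM in talazoparib libraries and 21.8, 21.0 and 19.9 CPM in control libraries. All talazoparib libraries were then above all control libraries, with a log2 fold change of 0.54 ± 0.08 (edgeR adjusted p = 0.000357), and the call held when any 1 library was left out (0.47 to 0.60). It rests on the GC term: FANCL was at 0.76 with the GC trend alone removed (edgeR adjusted p = 7.1e-05) and at -0.10 with the length trend alone removed (edgeR adjusted p = 0.532). FANCL shares 452 of its 2412 exon bases with VRK2 on the other strand, and VRK2 fell (log2 fold change -0.82, edgeR adjusted p = 0.000715).

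UBE2T (chr1:202331657-202341980, minus strand) is the E2 enzyme that hands ubiquitin to FANCD2 and FANCI through FANCL. It had 48.9, 45.9 and 47.4 CPM in talazoparib libraries and 48.2, 46.6 and 49.9 CPM in control libraries. The groups overlapped and the means lay within an SD of each other, 47.4 ± 1.49 CPM with talazoparib and 48.2 ± 1.65 CPM in control (SD, n = 3 each). The log2 fold change was -0.02 ± 0.08 (edgeR adjusted p = 0.814), and 0.12 ± 0.06 trend-removed (edgeR adjusted p = 0.117). UBE2T is the shortest of the 10 genes at 882 nt and has a GC content of 43.7%, and the median log2 fold change of all genes was 0.35 in its length decile and -0.53 in its GC decile. With the GC trend alone removed UBE2T was higher (0.44, edgeR adjusted p = 0.000537), and with the length trend alone removed it was lower (-0.37, edgeR adjusted p = 0.00255).

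FANCI (chr15:89243949-89317261, plus strand) and FANCD2 (chr3:10026414-10101930, plus strand), the pair that carries the ubiquitin, both fell. FANCI had 44.6, 41.0 and 36.1 CPM in talazoparib libraries and 68.6, 86.0 and 89.8 CPM in control libraries. The highest talazoparib library was 24.0 CPM below the lowest control library. The mean was 40.5 ± 4.26 CPM with talazoparib and 81.5 ± 11.3 CPM in control (SD, n = 3 each), and the log2 fold change was -1.01 ± 0.11 (edgeR adjusted p = 3e-05). FANCI overlaps POLG on the other strand in 458 of its 7766 exon bases, and POLG rose (log2 fold change 0.30, edgeR adjusted p = 0.00704).

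FANCD2 had 38.6, 38.8 and 35.2 CPM in talazoparib libraries and 60.0, 78.2 and 68.6 CPM in control libraries. The talazoparib libraries lay close together and all below the control libraries, of which library 1 was the lowest. The log2 fold change was -0.88 ± 0.10 (edgeR adjusted p = 3.3e-05). Control library 1 was the lowest control for all 4 genes that fell, and of the control libraries it also deviated least along the composition trend. Trend-removed, FANCI had 51.6, 52.0 and 39.9 CPM in talazoparib libraries and 63.5, 69.9 and 73.9 CPM in control libraries. FANCD2 had 44.9, 49.2 and 40.0 CPM in talazoparib libraries and 55.3, 62.6 and 55.8 CPM in control libraries. Neither pair of groups overlapped, and both genes were lowest in talazoparib library 3. The log2 fold changes were then -0.53 ± 0.10 for FANCI (edgeR adjusted p = 0.00164) and -0.38 ± 0.08 for FANCD2 (edgeR adjusted p = 0.00275). In their GC deciles 61.7% of genes fell for FANCI and 50.1% for FANCD2. How reads that FANCD2 may share with its unprocessed pseudogene FANCD2P2 were counted was not tested. The level of FANCD2 is uncertain to that extent.

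**Figure D3:**
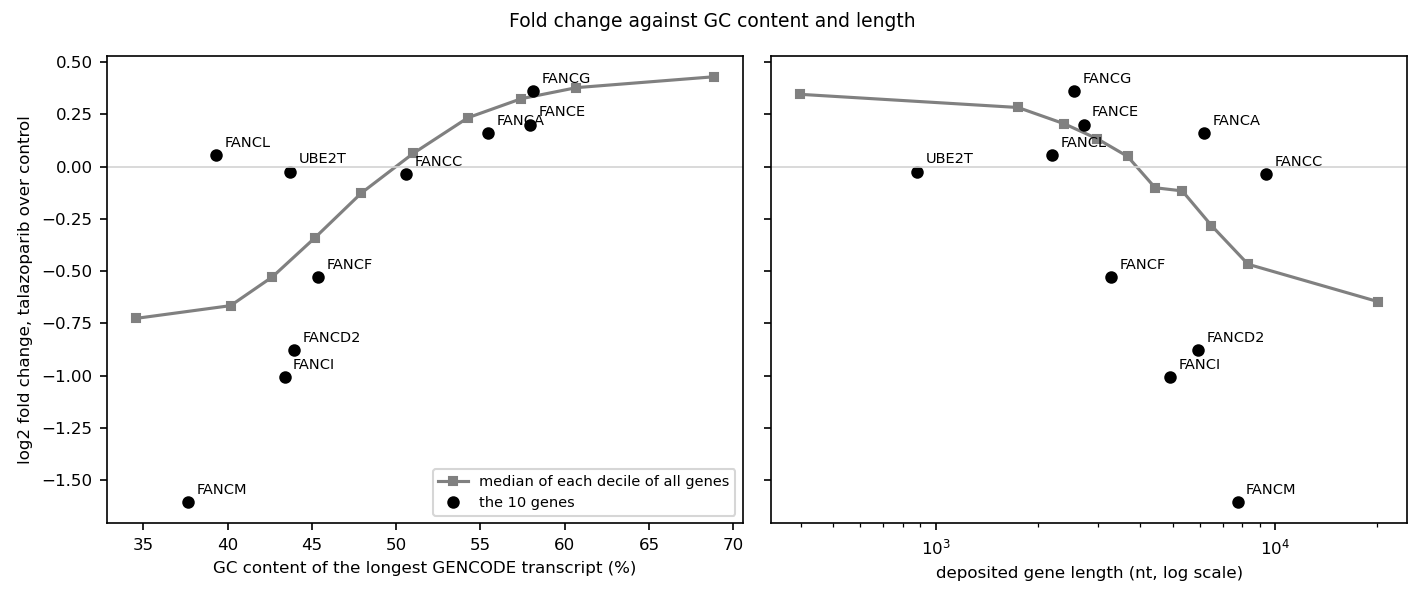
Log2 fold change, talazoparib over control, of the 10 genes (black) against GC content in percent (left) and deposited length in nt on a log scale (right); grey squares are the medians of the deciles of all genes. FANCG, FANCA, FANCC and FANCE lie near the grey line of GC content, FANCM, FANCI and FANCD2 below it, and FANCL and UBE2T above it.

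Over the 10 genes the TMM-scaled log2 fold change had a Pearson r of 0.71 and a Spearman rho of 0.74 with GC content, and of -0.44 and -0.49 with deposited length. With the trend-removed log2 fold change r against GC content was 0.21 and rho 0.24. These are descriptions over 10 genes measured in the same 6 libraries.

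Per length, the 10 genes differed far more among themselves than between the groups. In FPKM, which divides fragments by gene length and library total, FANCG was the highest at 75.0 ± 1.52 with talazoparib and 61.4 ± 3.38 in control, and UBE2T came next at 52.4 ± 2.37 with talazoparib and 56.1 ± 2.04 in control (SD, n = 3 each). FANCM was the lowest at 0.202 ± 0.065 FPKM with talazoparib and 0.645 ± 0.084 FPKM in control, and FANCF stood above it at 1.03 ± 0.27 FPKM with talazoparib and 1.55 ± 0.13 FPKM in control. In talazoparib libraries the order was FANCG, UBE2T, FANCA, FANCE, FANCL, FANCI, FANCD2, FANCC, FANCF and FANCM, and among neighbours only the ranges of FANCL and FANCI overlapped. In control libraries FANCI ranked with FANCA and FANCD2 ranked between FANCE and FANCL. The ranges of FANCA and FANCI, of FANCE and FANCD2, and of FANCD2 and FANCL overlapped there. FANCI had 8.05 ± 0.74 FPKM with talazoparib and 17.1 ± 2.73 FPKM in control, and FANCD2 had 6.16 ± 0.20 FPKM with talazoparib and 12.0 ± 1.89 FPKM in control.

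**Figure D4:**
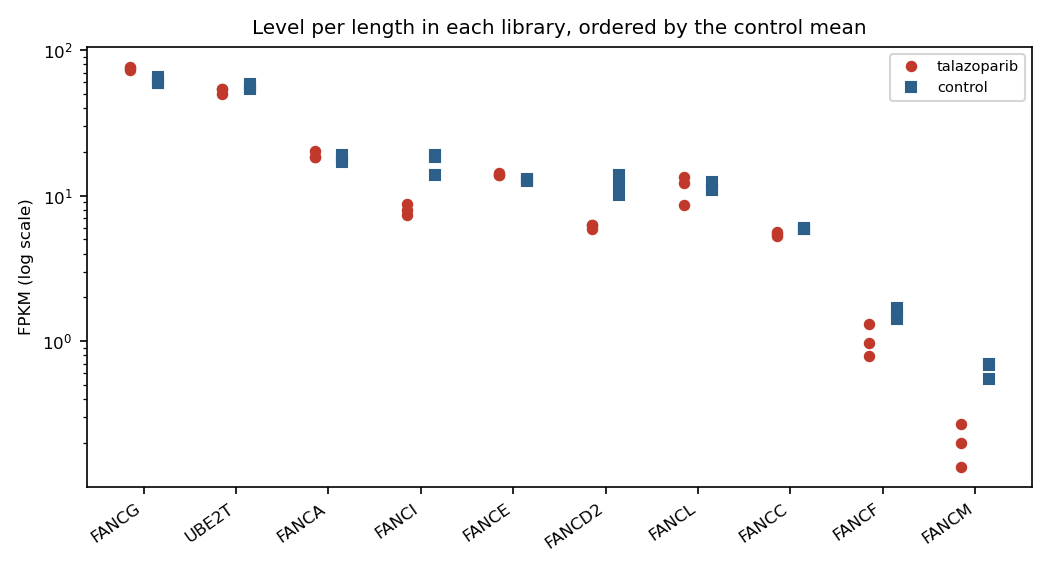
FPKM on a log scale in each talazoparib library (red circles) and each control library (blue squares), with the genes ordered by their control mean. FANCG and UBE2T lie above 49 FPKM and FANCM below 1 FPKM in every library, and all talazoparib libraries lie below all control libraries for FANCI, FANCD2, FANCF and FANCM, and by less for FANCC and UBE2T.

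Ratios between partner genes within a library need no scaling between libraries, but the composition trend acts on each partner by its own GC content and length. FANCI over FANCD2 was 1.40, 1.28 and 1.24 by FPKM in talazoparib libraries and 1.38, 1.33 and 1.58 in control libraries, which overlapped (exact permutation p = 0.3, two-sided; 0.4 adjusted over 4 ratios). FANCE over FANCF was 14.4, 17.9 and 10.6 in talazoparib libraries and 9.23, 7.52 and 8.15 in control libraries. These groups did not overlap, and the exact permutation p of 0.1 is the smallest that 3 against 3 libraries allow (0.4 adjusted). FANCA over FANCG averaged 0.253 ± 0.009 with talazoparib and 0.293 ± 0.030 in control (SD, n = 3 each; exact permutation p = 0.2), and UBE2T over FANCL 4.73 ± 0.92 with talazoparib and 4.87 ± 0.36 in control (exact permutation p = 0.8). With the trend removed from both partners, an alternative added after the data were seen, the log2 difference of FANCE over FANCF was 0.12 (0.76 without this step) and the groups overlapped (exact permutation p = 0.5). That of UBE2T over FANCL was -0.41 (-0.06 without this step) and the groups lay apart (exact permutation p = 0.1, the smallest possible; 0.4 adjusted). FANCI over FANCD2 stood at -0.16 (-0.13 without this step), and FANCA over FANCG changed sign to 0.08 (-0.21 without this step). None of the 4 ratios can pass 0.05 in this design, so these p-values do not show that the ratios were alike.

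The other genes of the core complex and of its removal step moved in both directions. Of 8 such genes, 4 rose and 2 fell (against 26.8% and 29.9% of all genes), with a median log2 fold change of 0.35. Trend-removed 1 rose and 1 fell (against 22.0% and 22.2%), so fewer passed than the share of all genes. FANCB, which joins FANCL and FAAP100 in the catalytic part of the complex, fell to 0.879 ± 0.293 CPM with talazoparib, against 2.24 ± 0.613 CPM in control (log2 fold change -1.34, edgeR adjusted p = 0.00238; SD, n = 3 each). FAAP100, named for that role after its values were seen, rose (0.30, edgeR adjusted p = 0.0128), and both calls were lost trend-removed, where FAAP100 had the other sign (-0.12). The call of FAAP100 was also lost without talazoparib library 2 (0.22), control library 2 (0.23) or control library 3 (0.28). FAAP20, which binds FANCA, rose in both fits (0.44, edgeR adjusted p = 0.00202; trend-removed 0.30, edgeR adjusted p = 0.00616). With the GC trend alone removed FAAP20 did not pass (0.05, edgeR adjusted p = 0.564), and with the length trend alone removed it stood at 0.87. CENPX, a histone-fold partner of FANCM, rose (0.39, edgeR adjusted p = 0.00551) but fell trend-removed (-0.19, edgeR adjusted p = 0.00921).

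WDR48, the cofactor of USP1, fell (-0.63, edgeR adjusted p = 0.000608), but not trend-removed (-0.08, edgeR adjusted p = 0.493). USP1 itself, named after its values were seen, had 30.3 ± 10.3 CPM with talazoparib and 41.3 ± 3.07 CPM in control (SD, n = 3 each) and did not pass (-0.45, edgeR adjusted p = 0.0834); without talazoparib library 3 it did (-0.69, edgeR adjusted p = 0.00583).

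Of 20 genes that act after ubiquitination of the pair, 19 were tested, with 10 lower and 3 higher (against 29.9% and 26.8% of all genes) and a median of -0.37. Trend-removed, 7 were lower and 2 higher (against 22.2% and 22.0%). BRCA2, a mediator of homologous recombination, had 1.79 ± 0.41 CPM with talazoparib and 8.82 ± 2.01 CPM in control (SD, n = 3 each; log2 fold change -2.30, edgeR adjusted p = 1.4e-05; trend-removed -1.29). The log2 fold change was -1.26 for its partner PALB2 (trend-removed -0.74), -1.36 for the crosslink nuclease DCLRE1A (trend-removed -0.73) and -2.17 for REV3L, the catalytic subunit of the translesion polymerase zeta (trend-removed -1.10). All of these passed in both fits. SLX1A was left untested at 2 to 10 counts a library.

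Cell cycle genes are given beside FANCI and FANCD2 because genes of replication and repair are often transcribed in waves of the cycle. Of 20 genes of the G1/S transition 7 rose and 6 fell, near the 26.8% and 29.9% of all genes (median 0.04), and trend-removed 5 were higher and 4 lower, near 22.0% and 22.2%. E2F1 (0.70, edgeR adjusted p = 2.3e-05; trend-removed 0.24) and the replication licensing factors CDT1 (0.62; trend-removed 0.14) and MCM2 (0.43; trend-removed 0.09) rose, and the helicase subunit MCM6 fell (-0.56; trend-removed -0.14). MCM2 and MCM6 did not pass trend-removed. Of 20 genes of G2 and mitosis 12 fell and 4 rose (against 29.9% and 26.8% of all genes; median -0.47), and trend-removed 9 were lower and 3 higher (against 22.2% and 22.0%). CENPE, the kinetochore kinesin, had a log2 fold change of -2.07 (trend-removed -1.20), CENPF of -1.75 (trend-removed -0.83), the spindle motor KIF11 of -1.15 (trend-removed -0.47) and the spindle protein NUSAP1 of -0.98 (trend-removed -0.56). The part of cell cycle phase in the falls of FANCI and FANCD2 was not tested.

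**Figure D5:**
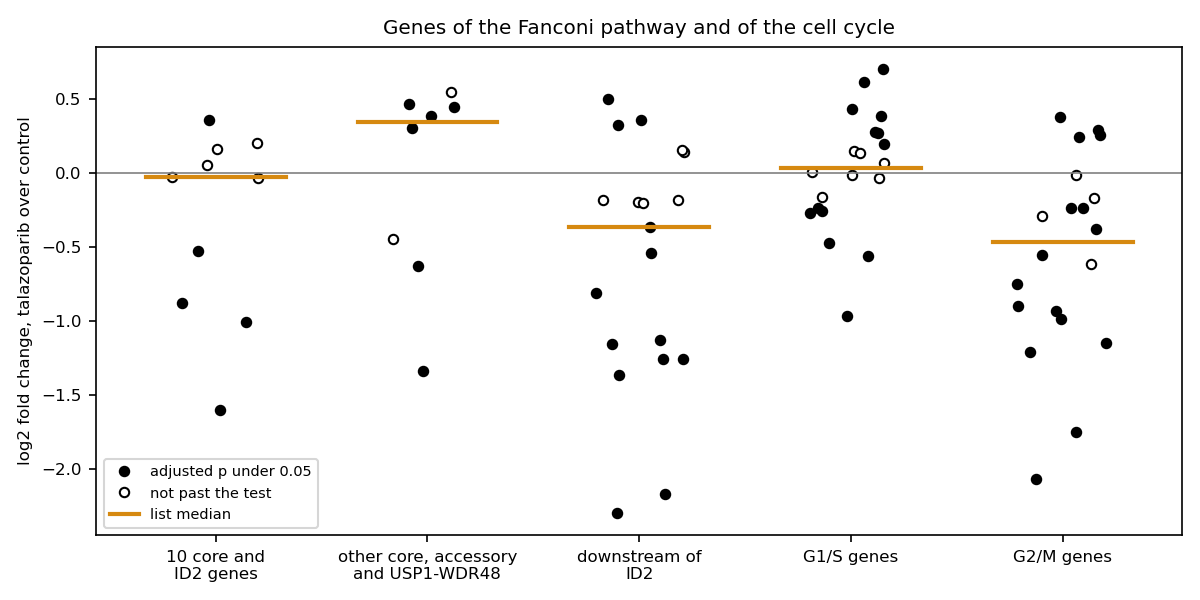
Log2 fold change, talazoparib over control, of each tested gene in 5 lists; filled points passed the edgeR test at an adjusted p under 0.05, open points did not, and orange bars are list medians. The 10 core and ID2 genes spread from -1.60 to 0.36 around a median of -0.03, and the lists of downstream and G2/M genes have medians of -0.37 and -0.47.

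The 5 other genes whose log2 CPM followed FANCD2 most closely over the 6 libraries, by Euclidean distance of deviations from the gene's own mean, were VWA8 (0.0996), ATP11A (0.136), CDON (0.139), ABHD2 (0.14) and PARP8 (0.141). Their log2 fold changes lay between -0.91 and -0.81, near the -0.88 of FANCD2. This closeness follows from choosing them by that distance. Trend-removed, ATP11A (-0.51), CDON (-0.39) and ABHD2 (-0.49) were still lower, while VWA8 did not pass (-0.18, edgeR adjusted p = 0.165) and PARP8 had the other sign (0.07, edgeR adjusted p = 0.758).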

How the data were processed

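RNA of 6 DU 145 libraries was prepared with TRIzol and the VAHTS Universal V6 kit, per the labels' protocols. Trimming, alignment and counting tools (HTSeq, HISAT2, Trimmomatic and Cufflinks) and build GRCh38 are listed in the submitters' processing notes. The gene annotation, the strand setting and each tool's version were not given in the sources used here. Raw counts per gene symbol and FPKM were deposited by the authors as 2 tables. Multiplying out, each deposited FPKM was the count per gene length per column total, and lengths solved for in this way were whole within 0.01 nt for 99.95% of 21065 genes with a count, so FPKM adds no measurement.

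The test was that of edgeR 4.0.16 under R 4.3.3 (TMM, filterByExpr with a minimum count of 10, robust quasi-likelihood test, Benjamini-Hochberg adjustment over 14452 genes). The SE is the log2 fold change divided by the root of F. For trend-removed values, natural splines of 5 degrees of freedom over GC content (GENCODE release 29, longest transcript) and log2 deposited length were fitted to each library's log2 CPM deviations and used as an offset, for 13718 genes. The test was also tried on simulated counts with no composition trend and the same dispersion set for every gene. Only 200 genes were changed there, drawn from genes without low counts, whereas 56.7% of genes were called in the real data. In the simulated counts it recovered 70% of the genes changed 1.5-fold and 98% of those changed 2-fold, and it called 9 unchanged genes. These shares check the code and do not give the power or the false calls in the real libraries. No 2 libraries of a group agreed within sampling noise (chi-square per gene 5.02 to 29.9). The genes, the lists, the rule for named genes (the 10 genes, the 4 most significant genes of each other list and the 5 nearest to FANCD2) and the tests were chosen with earlier results of these data known. Alternatives were DESeq2 1.42.0, limma 3.58.1 (voom and log2 FPKM with pseudocounts of 1 and 0.1), other scalings and filters, a replicate block, each trend alone and each library left out.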

Additional observations from a re-analysis of the deposited data

How the results depend on the processing

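FANCD2, FANCI and FANCM kept their direction and call under every alternative run, and FANCG kept its call except where the GC trend was removed. Without one library at a time their log2 fold changes ranged from -1.01 to -0.81 (FANCD2), -1.16 to -0.93 (FANCI), -1.84 to -1.40 (FANCM) and 0.29 to 0.40 (FANCG). FANCL lay near 0 and changed sign with total counts only (-0.016), without the length trend (-0.10), by limma on FPKM (-0.034 and -0.039) and with libraries left out (-0.052 to 0.21). Other leave-one-out ranges were 1 to 2 of the 10 genes higher, 2 to 4 other core genes higher, 1 to 4 G2/M genes higher, and -0.21 to 0.049 for the log2 difference in UBE2T over FANCL. With a CPM of 1 required in all libraries, 1 other core gene was lower. FANCB does not meet that filter, with 0.703, 0.718 and 1.22 CPM from 27, 27 and 48 reads in talazoparib libraries 1, 2 and 3.

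Removing the GC and length trend reversed FANCC (0.21), FANCE (-0.19), FANCG (-0.039), UBE2T (0.12), FAAP100 (-0.12), CENPX (-0.19), USP1 (0.069) and PARP8 (0.067), with 2 of the 10 genes higher and 1 other core gene each way, and it reversed the log2 difference in FANCA over FANCG (0.084). Removing the GC trend alone reversed FANCA (-0.094), FANCE (-0.13), UBE2T (0.44), FAAP100 (-0.16) and USP1 (0.18); 2 of the 10 genes were higher, other core genes were 2 higher and 0 lower by edgeR (2 lower at an unadjusted p under 0.05; no other tool was run on that offset), and 1 G1/S and 6 G2/M genes were lower. Removing the length trend alone reversed FANCC (0.49) and left 3 of the 10 genes, 2 other core genes and 1 G2/M gene higher, with a median of -0.24. The offsets differ by construction, and what causes the trend was not tested.

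Deviations of same-numbered libraries from their group means were not clearly correlated (-0.09, -0.17 and 0.00). With 3 libraries a group and the composition trend left in, these values cannot decide whether the libraries were paired. A replicate block called 1 of the 10 genes higher and 4 lower, with 3419 genes higher and 4161 lower in all. The replicate block with the trend removed called 2566 genes higher and 2575 lower, 2 of the 10 genes higher, 1 other core gene each way, 6 downstream genes lower, and 3 G1/S genes each way; it gave FANCC 0.21, FANCE -0.18, FANCG -0.039, UBE2T 0.12, FAAP100 -0.12, CENPX -0.19, USP1 0.042 and PARP8 0.062, and FANCE then did not pass (edgeR adjusted p = 0.0661). FANCM and FANCF had only 42 to 216 counts a library and the largest SEs of the 10 genes (0.23 and 0.19).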
